A study of Oryza sativa with 8 samples.

Results

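Rice seedlings that overexpress OsTMF were compared with wild-type seedlings of the same cultivar, Zhonghua 11 (ZH11), after 24 h of chilling. The comparison used 4 of the 8 arrays of the series, namely the 2 whose titles name OsTMF-OE cold and the 2 whose titles name ZH11 cold. All were one-colour Affymetrix rice arrays of total RNA from shoots and leaves. The OE cold group held 1 array of each of 2 transgenic lines, OE-24 and OE-29, which carry the OsTMF overexpression construct in Zhonghua 11. The ZH11 cold group held 2 replicates of the untransformed cultivar. All seedlings had grown in potting soil to the 4-leaf stage and were then kept at a constant 4 °C with 14 h of light and 10 h of darkness. The other 4 arrays, 2 named OE normal (again OE-24 and OE-29) and 2 named ZH11 normal, held seedlings taken before the move to the chamber. They entered the estimate of the spread and a comparison of the genotypes before cold. The promoter that drives the construct and the number of plants behind an array are unknown from the labels, and with 1 array a line, differences between lines and between arrays cannot be told apart.

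Rice comes from warm regions and tolerates chilling poorly. In the cold, calcium and kinase signals induce the DREB1 (CBF) transcription factors, which bind a short element in the promoters of cold-responsive genes and are among the best studied regulators of chilling and freezing tolerance in plants. Jasmonate signalling works alongside them, with JAZ proteins acting as repressors whose own genes are switched on by the hormone, while auxin signalling, water channels and wall-loosening proteins serve the growth that chilling slows.

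Array medians were close together, 27.2 to 28.2 units of signal over 57194 probe sets, and no array stood apart. The 2 OE cold arrays differed from each other by a median of 0.10 on the log2 scale and the 2 ZH11 cold arrays by 0.09. Of the arrays before cold, which also entered the estimate of the spread, the OE pair differed by 0.14 and the ZH11 pair by 0.09. All 9 leaf markers were tested, and 2 of them, the chlorophyll synthesis genes PORB and CHLI, were called higher in OE. This was 22.2%, against 11.4% of all genes. In limma 0 leaf markers were called lower, against 6.53% of all genes, and 2 had an unadjusted p under 0.05 downward. Neither PORB nor CHLI kept its call when each array was left out in turn. Over all alternative runs the difference ran between 0.31 and 0.69 for PORB and between 0.29 and 0.54 for CHLI. Both genes and the root marker NIP2-1 are named after their values were seen. The summed signal of the 9 leaf markers was 29339.7 and 29254.6 in OE-24 and OE-29 cold, against 29120.2 and 30078.9 in ZH11 cold, led by the Rubisco small subunit gene RBCS. Of 3 tested seed storage markers, 1 root marker (NIP2-1), 6 flower markers and 2 shoot meristem markers, 0 were called between the genotypes in limma. Over all genes the share called was 17.9%. NIP2-1 alone had an unadjusted p under 0.05, with 264.9 and 280.9 in OE against 181.1 and 185.7 in ZH11. OsTMF itself was matched to 0 probe sets through the annotation used here, so the overexpression could not be checked on these arrays. In such bulk samples, fewer cells of a type and less RNA per cell cannot be told apart.

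After cold, 2839 of 15841 genes differed between OE and ZH11, or 17.9% of those tested (limma, adjusted p under 0.05, 1 probe set a gene). They comprised 1804 genes higher in OE, 11.4% of those tested, and 1035 lower, 6.53%. Most differences were modest, with a median size of 0.46 on the log2 scale among the higher genes and 0.51 among the lower ones, and 125 higher and 103 lower genes reached 2-fold. Over all tested genes the median difference was 0.06. Over probe sets the count was 4487 of 34316 (13.1%), and it depended on the number of cold arrays. It was 1131 without ZH11 replicate 1, 1382 without ZH11 replicate 2, 2011 without OE-24 and 2213 without OE-29.

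Set directly against each other after cold, the lines differed at 39 of 34316 probe sets (0.114%), in a test with 1 array a line. Over all tested probe sets, both OE arrays lay above both ZH11 arrays in 33.5% and below both in 28.1%. This held for each of the 2790 higher and 1697 lower called probe sets, but these were called on the mean of the same arrays, so that the shared side, and the counts and medians by line among the called genes, were largely fixed by the selection and are a description only. Set singly against the ZH11 pair, OE-24 had 4546 called probe sets (13.2%) and OE-29 had 3962 (11.5%), or 2836 genes (17.9%) and 2573 (16.2%). Of the 1804 higher genes, 1049 were called in each line, 354 in OE-24 only, 223 in OE-29 only and 178 in neither alone. Of the 1035 lower genes the counts were 620, 161, 153 and 101. The median difference from ZH11 was 0.47 in OE-24 and 0.45 in OE-29 for the higher genes, and -0.50 in OE-24 and -0.52 in OE-29 for the lower ones. At 2-fold or more in both lines there were 91 higher and 82 lower genes. These line comparisons share the ZH11 arrays, and the single array of a line is assumed to vary as the ZH11 pairs do. Few calls between the lines, in a test with 1 array a line, do not show that the lines were alike.

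**Figure D1:**
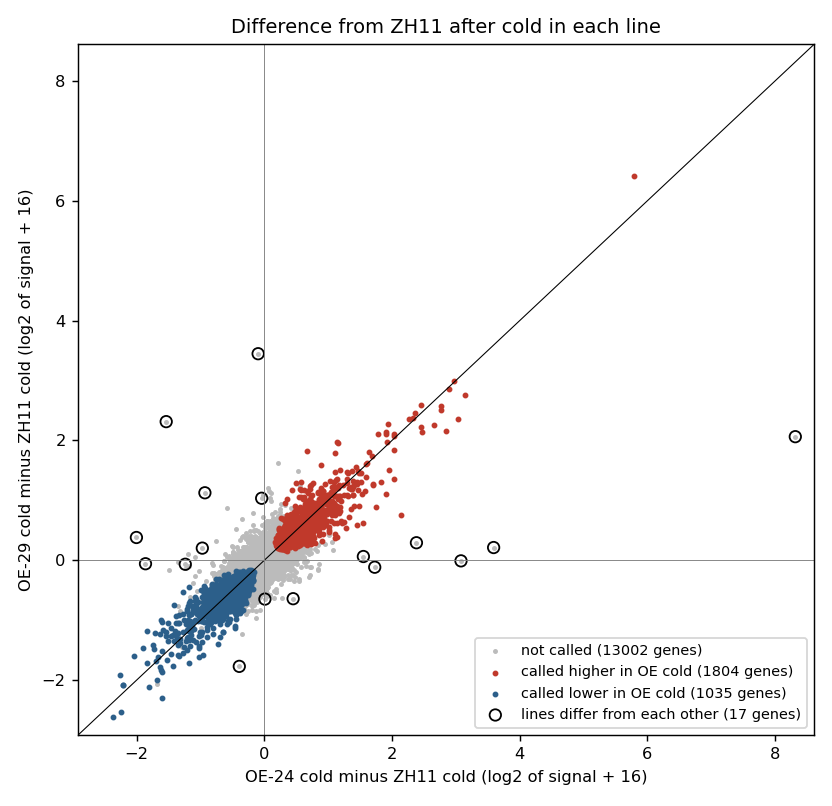
Each point is a gene, placed by its difference from the mean of the ZH11 cold arrays in OE-24 (horizontal) and OE-29 (vertical), on the log2(signal + 16) scale; red and blue mark the 1804 higher and 1035 lower genes, rings the 17 genes that differed between the lines, and the diagonal equality. Both axes subtract the same ZH11 arrays, so part of their spread is shared. The called genes lie in the quadrants where both lines share a sign, and the ringed genes lie off the diagonal, both largely by selection.

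The DREB1 factors were among the largest differences upward in OE. The signal of DREB1A was 1050.4 in OE-24 and 871.8 in OE-29, against 126.3 and 155 in the ZH11 arrays. DREB1G gave 1162.8 and 715.6 in the OE lines, against 138.8 and 156.5 in ZH11. DREB1B, the brightest of the family here, gave 4345.9 and 4566.8 in OE, against 988.3 and 1119.1 in ZH11. In each case the lower OE array was several times as bright as the higher ZH11 array. That the groups did not overlap was required by the choice of named genes. The log2 differences were 2.64 ± 0.14 for DREB1A (± standard error; limma adjusted p = 9.46e-06), 2.51 ± 0.27 for DREB1G (adjusted p = 0.000452) and 2.07 ± 0.14 for DREB1B (adjusted p = 2.26e-05). They kept their calls in every alternative, and over these the difference of DREB1A ran between 2.32 and 2.77. The gene lists here and below were chosen with earlier results of these data known, so their shares are a description only. The DREB1 family had 5 tested members and 4 were called higher, 80% against 11.4% of all genes. Its median was 2.07 against 0.06 over all genes. Without any 1 of the 4 cold arrays the count was 3. The remaining pair are named after their values were seen, because the family is small. DREB1E, a dim gene, was also called at 0.48, with signals of 71.7 and 66.6 in OE against 44 and 46.1 in ZH11. DREB1C was dim as well, and its values overlapped at 26.6 and 31.1 in OE against 28.6 and 32.1 in ZH11.

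Among the other cold and stress genes, MYB2, MYB4 and RAB16C were called higher and LTI6A lower. MYB2, a MYB factor studied in rice for stress tolerance, had signals of 573.6 and 595.5 in OE, against 145.8 and 189.9 in ZH11, a difference of 1.72 ± 0.15 (adjusted p = 0.000138). MYB4, a cold-induced MYB factor, had 5004.5 and 5089.7 in OE, against 2850.7 and 2948.5 in ZH11 (0.80 ± 0.09, adjusted p = 0.000801). Among the 8 cold-associated genes, however, MYB4 was the 1 called higher, 12.5% and so near the 11.4% of all genes, and the list's median was -0.17. The small membrane protein gene LTI6A was the 1 called lower, at -0.25, a call lost without any 1 of the 4 cold arrays or either ZH11 normal array, and under 5 other alternatives, median centring among them (adjusted p 0.0331 to 0.283 over the alternatives). Of 8 LEA and dehydrin genes, whose proteins protect cells during dehydration, only RAB16C was called, again 12.5% and near that background. Its signals were 333.7 and 294.6 in OE, against 190.6 and 157.6 in ZH11 (0.80 ± 0.12, adjusted p = 0.00236). Of 5 other AP2/ERF factors 0 were called in limma, and 1 had an unadjusted p under 0.05.

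**Figure D2:**
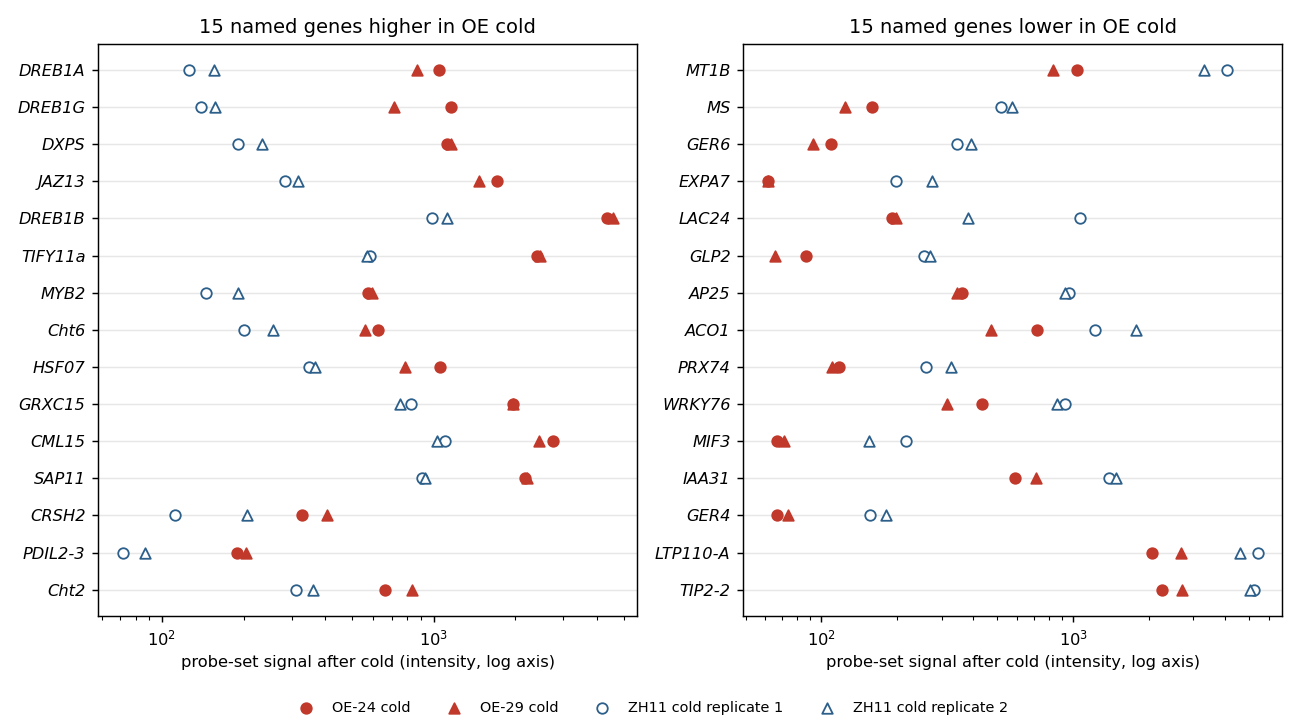
Deposited probe-set signal (log axis) after cold of the 15 named genes with the largest called differences, higher (left) and lower (right) in OE. Filled red symbols are OE-24 (circles) and OE-29 (triangles), and open blue symbols the 2 ZH11 replicates. Genes were chosen among those without overlap, so that the 2 OE arrays lie on 1 side of the 2 ZH11 arrays in all 30 by selection. The 2 ZH11 arrays lie far apart for LAC24, at 1063.5 and 382.1.

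Jasmonate genes were the next list with many higher calls. Of 27 tested, 9 were called higher in limma, 33.3% against the 11.4% of all genes, and 0 lower, where 4 had an unadjusted p under 0.05. The list median was 0.11. Without 1 of the 4 cold arrays the count was 5 to 7. JAZ13 gave 1710.4 and 1464.1 in OE, against 284.8 and 316.2 in ZH11 (2.34 ± 0.21, adjusted p = 0.000152). TIFY11a, also listed as JAZ9, gave 2395.6 and 2463.2 in OE, against 581.3 and 568.5 in ZH11 (2.05 ± 0.20, adjusted p = 0.000254). In both repressor genes the OE lines lay together. They lay above ZH11, which the choice of named genes required. JAZ5 was called at 0.91, with 668.5 in OE-24 but 395.3 in OE-29, against 262.5 and 271.5 in ZH11. The call of JAZ5 was lost without OE-24, without any 1 of the 4 ZH11 arrays and under other alternatives (adjusted p 0.0174 to 0.25). The abscisic acid and SnRK2 list had 5 of 16 genes higher, or 2 to 4 without 1 cold array, and 0 lower in limma, where 2 had an unadjusted p under 0.05. Its median was 0.23. ABA8OX1, whose product breaks down abscisic acid, had 3393.4 and 3133.8 in OE, against 1491.7 and 1779.1 in ZH11 (0.99 ± 0.14, adjusted p = 0.00212). ZEP, the zeaxanthin epoxidase gene of abscisic acid synthesis, was called at 0.44 and lost its call without ZH11 replicate 1 (adjusted p 0.00345 to 0.0621). The kinase gene SAPK7, called at 0.82, did so without ZH11 replicate 2 (adjusted p 0.00327 to 0.0501).

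Among the other genes much higher in OE, DXPS encodes deoxyxylulose phosphate synthase, the entry enzyme of plastid isoprenoid synthesis. It gave 1123.8 and 1153.6 in OE, against 189.9 and 233 in ZH11 (2.35 ± 0.15, adjusted p = 1.92e-05). The heat shock factor gene HSF07 gave 1059.4 and 785.2 in OE, against 348.9 and 364.5 in ZH11 (1.32 ± 0.13, adjusted p = 0.000256). The glutaredoxin gene GRXC15 gave 1961.4 and 1955.6 in OE, against 828.6 and 750.8 in ZH11 (1.29 ± 0.12, adjusted p = 0.000201). The groups did not overlap in these genes, which the choice of named genes required. HSF07 was the one with the widest gap between the lines. CML15, a calmodulin-like calcium sensor gene, was higher by 1.27 ± 0.11 and SAP11, a stress-associated zinc finger gene, by 1.24 ± 0.09. The protein disulfide isomerase gene PDIL2-3 was higher by 1.16 and the zinc finger gene C3H54 by 1.60. The chitinase genes Cht6 and Cht2 were higher by 1.33 and 1.11, and the second tested probe set of Cht2 gave 1.17. CRSH2, an enzyme of guanosine tetraphosphate metabolism in plastids, was called at 1.18. It gave 328.9 and 406.7 in OE, against ZH11 signals that lay far apart, 111.7 and 206.1. Its call was lost without ZH11 replicate 1 and without OE-29 (adjusted p 0.00941 to 0.119).

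Most germin-like protein genes were lower in OE than in ZH11 after cold. These encode cupin proteins of the cell wall, some with oxalate oxidase or superoxide dismutase activity. Of 9 tested, 7 were called lower, 77.8% against 6.53% of all genes, with a median of -0.97. In limma 0 were higher, also at an unadjusted p under 0.05. This list too was chosen with earlier results of these data known. GER6 gave 109.2 and 92.5 in OE, against 344 and 394.2 in ZH11 (-1.72 ± 0.14, adjusted p = 7.86e-05). Before cold it gave 65.5 and 80.4 in OE, against 72.4 and 87.4 in ZH11. GLP2 gave 86.9 and 65.6 in OE, against 256.3 and 269.3 in ZH11 (-1.60 ± 0.13, adjusted p = 8.27e-05), and its dimmer probe set gave -2.51. For both genes the ZH11 cold arrays lay close together. They lay above both lines, which the choice of named genes required. GER3 (-1.17) and GER4 (-1.10) were called too. Both calls were lost without either ZH11 cold array and without OE-29, that of GER4 also without OE-24 (adjusted p 0.0026 to 0.0915 for GER3 and 0.00155 to 0.129 for GER4). Without 1 cold array, 2 to 4 of the 9 genes were called. Germin-like genes are similar in sequence, so values of single members are uncertain.

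Aquaporin genes, which encode water channels, were the second such list. Of 22 tested, 8 were called lower, 36.4% against 6.53% of all genes, and 1 higher, against 11.4% of all genes. The median was -0.18, and 6 to 7 were called lower without 1 cold array. TIP2-2, a channel of the vacuolar membrane, gave 2255 and 2705.8 in OE, against 5212.4 and 5039 in ZH11 (-1.05 ± 0.11, adjusted p = 0.000492). NIP1-1 gave 410.7 and 480.7 in OE, against 867.2 and 852.8 in ZH11 (-0.93 ± 0.09, adjusted p = 0.000307). PIP2-6, a channel of the plasma membrane, gave 2769.3 and 2932.3 in OE, against 5242.7 and 5571.3 in ZH11 (-0.92 ± 0.16, adjusted p = 0.00478, or 0.000291 to 0.0501 over the alternatives, the highest without ZH11 replicate 2). In all of these the OE arrays lay below both ZH11 arrays, which the choice of named genes required. TIP1-2 went the other way, at 89.4 and 90.4 in OE against 43.6 and 42.8 in ZH11 (0.84 ± 0.11, adjusted p = 0.0011).

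Genes of auxin signalling and of wall loosening had calls in the lower direction only, as tested with all 8 arrays. Of 51 auxin genes 12 were called lower, 23.5% against 6.53% of all genes, and 0 higher in limma (11.4% of all genes), where 2 had an unadjusted p under 0.05. The median was -0.12, and the count was 7 to 10 without 1 cold array. IAA31, an auxin repressor gene, gave 589.5 and 713.2 in OE, against 1392.6 and 1480.0 in ZH11 (-1.13 ± 0.19, adjusted p = 0.0046). IAA14 (-0.90) and IAA30 (-0.69) followed. Of 28 genes for wall loosening and pectin, 7 were called lower, 25% against the same 6.53%, and 0 higher in limma, with 0 upward at an unadjusted p under 0.05. The median was -0.14. The count was 1 without ZH11 replicate 1, 0 without ZH11 replicate 2 and 4 without OE-24 or OE-29. The expansin gene EXPA7 gave 61.3 and 61.6 in OE, against 198 and 276 in ZH11 (-1.69 ± 0.39, adjusted p = 0.0204). Its call was lost without any 1 of the 4 cold arrays (adjusted p 0.000962 to 0.139), and its dimmer probe set gave -0.07. EXPB4, another expansin gene, was called at -0.91 and lost its call without either ZH11 array or OE-24 (adjusted p 0.00164 to 0.0933).

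The lists for building the wall held more lower than higher calls, where all genes had 6.53% lower and 11.4% higher. Their medians were -0.06 for cellulose synthase and xylan genes and -0.05 for peroxidase, laccase and lignin genes. Over the alternatives the second ran between -0.13 and 0.11. Before cold these medians were -0.09 and -0.15. Of 40 genes of the cellulose synthase superfamily and xylan synthesis, 8 were called lower (20%) and 2 higher (5%), with 1 to 3 lower without 1 cold array. CSLE1 gave 178.8 and 175.2 in OE, against 294.8 and 293.4 in ZH11 (-0.68 ± 0.11, adjusted p = 0.00313). Of 17 genes for class III peroxidases, laccases and lignin, 5 were called lower (29.4%) and 1 higher (5.88%), with 1 to 3 lower without 1 cold array. LAC24, a laccase gene, gave 191.2 and 198.2 in OE, against 1063.5 and 382.1 in ZH11. Its difference of -1.64 ± 0.44 (adjusted p = 0.0363) was not called without ZH11 replicate 1, without either OE line or with no trend (adjusted p 0.0129 to 0.252). The peroxidase gene PRX74, at -1.25, lost its call without ZH11 replicate 2 (adjusted p 0.00128 to 0.0674). Of 35 homeodomain genes 5 were called lower (14.3%) and 0 higher in limma, with 1 upward at an unadjusted p under 0.05, and the lower count was 0 without either ZH11 array, 1 without OE-29 and 4 without OE-24.

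Large differences downward also lay outside these families. MT1B encodes a metallothionein, a small metal-binding protein, and gave 1034 and 828.7 in OE, against 4070.0 and 3303.7 in ZH11 (-1.97 ± 0.32, adjusted p = 0.00414, or 0.0519 without ZH11 replicate 1 and down to 7.78e-05 under the other alternatives). MS gave 158.5 and 124.6 in OE, against 518.4 and 568.7 in ZH11 (-1.84 ± 0.25, adjusted p = 0.00165). AP25 gave 362 and 345.7 in OE, against 963.2 and 927.7 in ZH11 (-1.38 ± 0.22, adjusted p = 0.004). In each gene both OE arrays lay below both ZH11 arrays, which the choice of named genes required. The lower set also held WRKY76 (-1.24), a transcription factor gene of the WRKY family, the mini zinc finger gene MIF3 (-1.23), the lipid transfer protein gene LTP110-A (-1.08) and SUS1 (-0.94), a sucrose synthase gene, all called in every alternative. ACO1, a gene for the last enzyme of ethylene synthesis, was called at -1.32 and lost its call without ZH11 replicate 2 and without OE-29 (adjusted p 0.00076 to 0.115). INO1, the inositol phosphate synthase gene, gave 2866.9 and 2859.5 in OE, against 4223.2 and 4534 in ZH11 (-0.61 ± 0.07, adjusted p = 0.000565). CAO, whose product makes chlorophyll b, gave 281.9 and 271.9 in OE, against 438.8 and 435.8 in ZH11 (-0.63 ± 0.10, adjusted p = 0.00401).

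**Figure D3:**
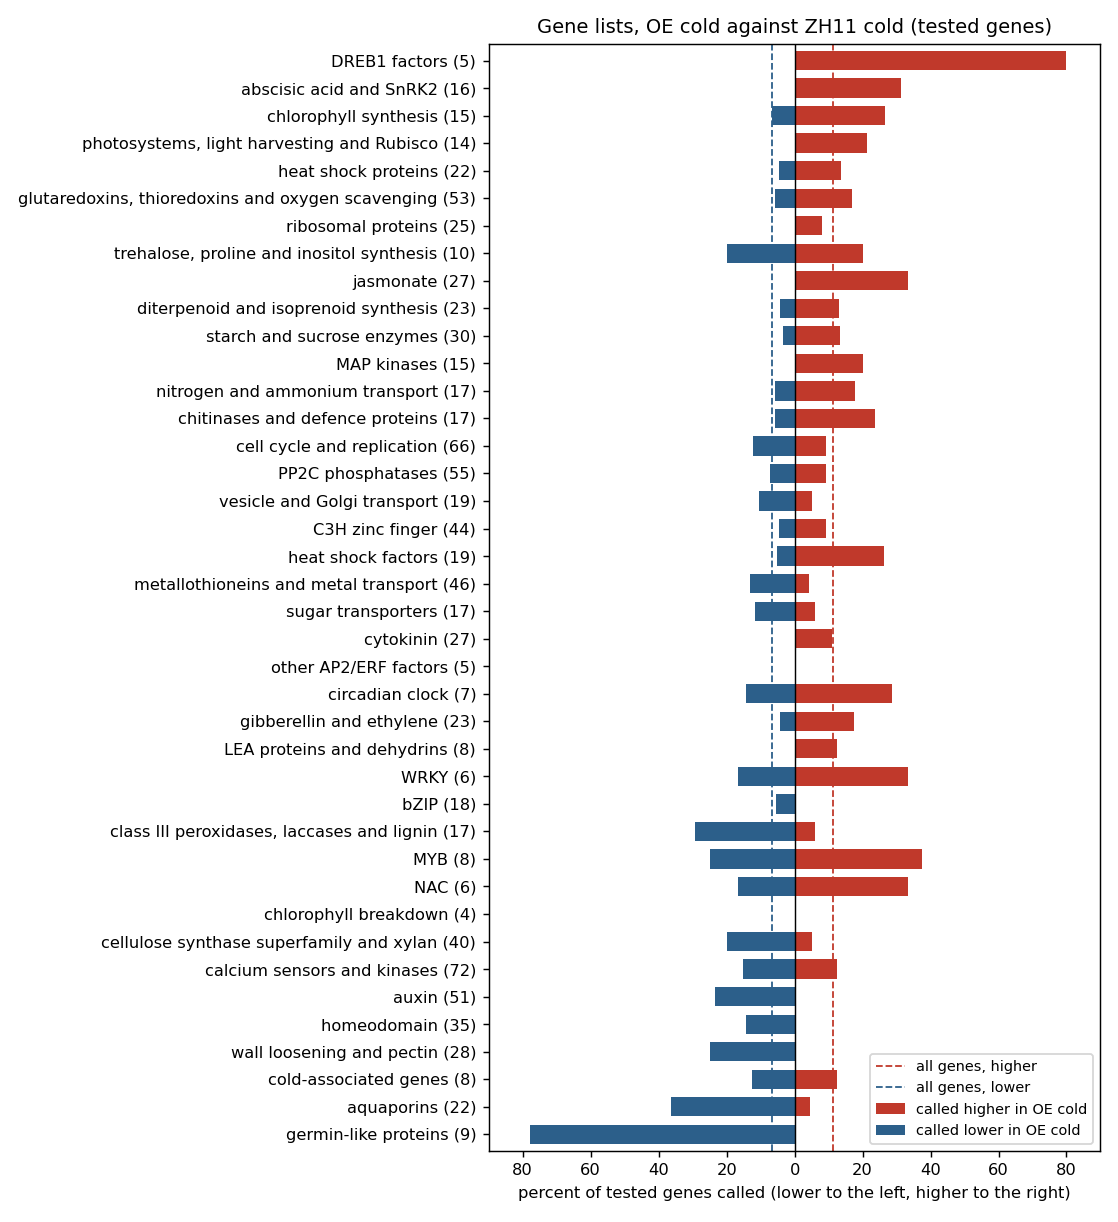
Percent of the tested genes of each list that were called higher (red, right) or lower (blue, left) in OE cold against ZH11 cold, ordered by the list's median difference, with the number tested in parentheses and dashed lines at the 11.4% and 6.53% of all genes. The DREB1 factors are at the top with 4 of 5 higher and the germin-like proteins at the bottom with 7 of 9 lower. Many lists hold few genes, and all were chosen with earlier results of these data known.

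Many lists held calls in both directions, to be read against the 11.4% higher and 6.53% lower of all genes. Calcium sensors and their kinases had 9 of 72 genes higher (3 to 5 without 1 cold array) and 11 lower (3 to 8), with CML20 at 0.82 beside CML15 and CML11 at -0.84. The 66 genes of the cell cycle and replication had 6 higher and 8 lower (3 to 6 without 1 cold array), led downward by CYCP4-1 (-0.89, not called without either ZH11 array or OE-29, adjusted p 0.00132 to 0.117) and CDC25.1, at 2801.4 and 2720.1 in OE against 5102.6 and 4858.3 in ZH11 (-0.85 ± 0.07, adjusted p = 8.87e-05). The 6 higher cell cycle calls were all lost without 1 cold array, whichever it was. PP2C phosphatases had 5 of 55 higher (3 to 4 without 1 cold array) and 4 lower (0 to 3), and C3H zinc fingers 4 of 44 higher (2 to 3) and 2 lower (0 to 1). Oxygen scavenging, with the glutaredoxins and thioredoxins, had 9 of 53 higher (4 to 7 without 1 cold array) and 3 lower (0 to 1), with a median of 0.14. Its ascorbate peroxidase gene APX7 gave 1048.6 and 1113.2 in OE, against 591 and 623.4 in ZH11 (0.82 ± 0.09, adjusted p = 0.00041). Heat shock factors had 5 of 19 higher (1 to 4 without 1 cold array) and 1 lower, and heat shock proteins 3 of 22 higher and 1 lower, with HSP18.8 at 0.58 and HSP16.9B at -0.78. HSP81-1 was called higher at 0.58 by its brighter probe set, while the dimmer one gave -0.59, so its direction is uncertain.

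Lists of photosynthesis, metabolism and hormones held small numbers of calls, and most of the higher counts shrank when 1 cold array was left out. All genes had 11.4% called higher and 6.53% lower. Of 14 genes for photosystems, light harvesting and Rubisco, 3 were called higher (21.4%) and 0 lower in limma, with 1 downward at an unadjusted p under 0.05, but 0 to 1 were called higher without 1 cold array. Chlorophyll synthesis had 4 of 15 higher (26.7%) and 1 lower, CAO, with 0 to 3 higher without 1 cold array. Of 4 chlorophyll breakdown genes 0 were called, and 0 had an unadjusted p under 0.05. Ribosomal protein genes had 2 of 25 called higher and 0 lower in limma, with 0 downward at an unadjusted p under 0.05, and without any 1 cold array 0 were called. Both lines lay above the ZH11 mean in 23 of the 25, against 50.4% of all genes. Starch and sucrose enzymes had 4 of 30 higher (1 to 2 without 1 cold array) and 1 lower, SUS1, and the cell wall invertase gene CIN1 gave 1168.3 and 1169.4 in OE, against 623 and 646.1 in ZH11 (0.87 ± 0.11, adjusted p = 0.00126). Chitinases and defence proteins had 4 of 17 higher (23.5%, or 4 to 5 genes without 1 cold array) and 1 lower. Gibberellin and ethylene genes had 4 of 23 higher (2 to 3) and 1 lower, ACO1, with the gibberellin synthesis gene CPS1 at 0.82 and the ethylene receptor gene ERS2 at 0.81. Ammonium and nitrogen transport had 3 of 17 higher (1 to 2) and 1 lower, with the transporter gene AMT3-3 at 0.99. The circadian clock had 2 of 7 higher and 1 lower, none of which was called without either ZH11 array or without OE-24.

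Genes known only by a locus number held the largest differences of all. LOC4331398 had signals of 1181.5 in OE-24 and 1838.2 in OE-29, against 5.2 and 6.2 in ZH11, where it was near the bottom of the scale (6.10 ± 0.23, adjusted p = 2.65e-06). The second probe set of this gene averaged 1206.8 in OE and 7.2 in ZH11, a difference of 5.68. Since the ZH11 signals are so low, the size depends on the pseudocount and ran between 4.46 and 7.79 over the alternatives. The difference was there before cold too, with 1059 in OE-24 and 1719.1 in OE-29, against 4.1 and 7.3 in ZH11. Its neighbour LOC4331397 on chromosome 3, by the order of the reference gene table (assembly ASM3414082v1), gave 144.6 in OE-24 and 140.3 in OE-29, against 94.4 and 83.5 in ZH11. The next gene beyond it, LOC9271623, was not called, at 551.7 in OE-24 and 545.9 in OE-29, against 581.3 and 607.5 in ZH11 (-0.11). LOC9268613 gave 327.3 and 353.5 in OE, against 58.2 and 53.2 in ZH11 (2.31 ± 0.13, adjusted p = 1.40e-05), and its difference before cold was as large, 2.29. LOC4325751 gave 1575.1 and 1736.8 in OE, against 225 and 331 in ZH11 (2.53 ± 0.17, adjusted p = 2.88e-05), and LOC4351514 was higher by 2.30 ± 0.15. Neither of these last genes was called before cold. Downward, LOC9270481 gave 59 and 47.7 in OE, against 335.2 and 417.1 in ZH11 (-2.50 ± 0.36, adjusted p = 0.00227). LOC4335518 gave 160.3 and 176.4 in OE, against 846.2 and 758.1 in ZH11 (-2.15 ± 0.15, adjusted p = 3.17e-05), and it was also lower before cold, at -1.81. All 6 kept their calls in every alternative. LOC4343628 (-2.39) lost its call without ZH11 replicate 2 and without OE-29 (adjusted p 0.000391 to 0.0951), and LOC4327106 (-2.15) without any 1 of the 4 cold arrays (adjusted p 0.000513 to 0.122).

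Before cold the genotypes differed at 238 genes (1.5% of those tested), 151 higher and 87 lower in OE, against the 2839 after cold. The difference between the 2 effects, OE against ZH11 after cold minus the same before cold, was called for 245 genes (1.55%), 164 positive and 81 negative (390 of 34316 probe sets, 1.14%). It was positive for the 3 bright DREB1 genes, at 2.69 ± 0.20 for DREB1A (adjusted p = 0.000576), 2.59 ± 0.19 for DREB1B (adjusted p = 0.000576) and 2.27 ± 0.38 for DREB1G (adjusted p = 0.021). The call of DREB1G was lost without either ZH11 cold array, without OE-24 cold, without OE-24 normal and without ZH11 normal replicate 1 (adjusted p 0.00933 to 0.13), while those of DREB1A and DREB1B held in every alternative. Before cold, DREB1A gave 42.8 and 55.3 in OE-24 and OE-29, against 53.6 and 48.7 in ZH11. DREB1B gave 89 and 128.7 in OE, against 152 and 170.5 in ZH11, so both OE arrays were then below ZH11, though the difference of -0.52 was not called (adjusted p = 0.139). TIFY11a gave 17.6 and 38.3 in OE, against 32.7 and 20.6 in ZH11, all dim and overlapping. The same test was passed by JAZ13, MYB2, DXPS, HSF07, CML15, SAP11, MYB4 and others upward and by GER6, GLP2, TIP2-2, NIP1-1, INO1 and CDC25.1 downward. Of the 22 aquaporins 4 passed it, of the 27 jasmonate genes 3 and of the 9 germin-like genes 2. Of 51 auxin genes 0 passed it in limma, though 9 had an unadjusted p under 0.05. The 28 wall loosening and pectin, 40 cellulose synthase and xylan and 17 peroxidase, laccase and lignin genes had 0 too. So did the 35 homeodomain and 16 abscisic acid and SnRK2 genes. In these other lists, in that order, 3, 4, 2, 4 and 4 had an unadjusted p under 0.05. Before cold, 2 auxin genes were called, and that list's median was -0.07.

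Other genes already differed before cold. For the chitinase gene Cht2 the difference between OE and ZH11 was 1.11 after cold and 1.58 before (adjusted p = 0.000338). It was 0.89 after cold and 0.99 before (adjusted p = 7.05e-05) for Cht11, and 1.33 after cold and 0.92 before (adjusted p = 0.00747) for Cht6. MS was at -1.84 after cold and -1.58 before (adjusted p = 0.0154). The metallothionein gene MT4C was at -1.45 after cold and -1.98 before (adjusted p = 0.00609), with a call after cold that was lost without ZH11 replicate 1 and without OE-29 (adjusted p 0.00263 to 0.0856). For none of these 5 genes was the difference between the effects called (adjusted p = 0.327 for Cht2, 0.694 for Cht11, 0.363 for Cht6, 0.802 for MS and 0.583 for MT4C). A missed threshold does not show that the effects were equal.

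**Figure D4:**
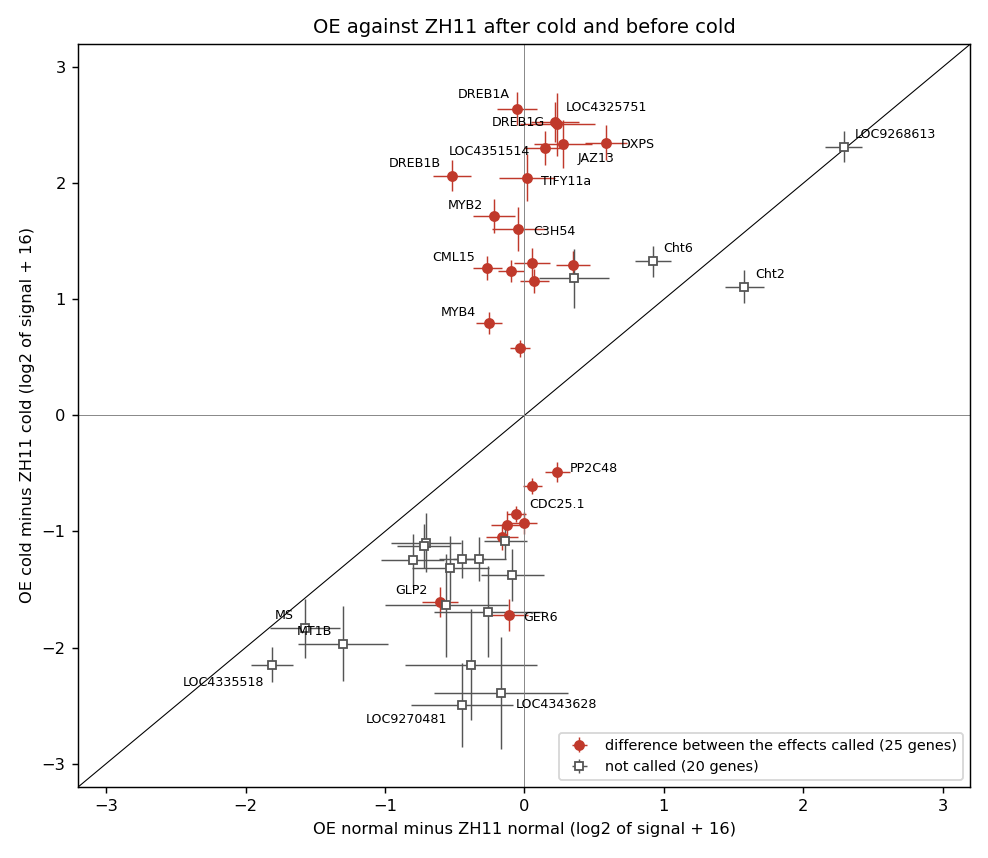
Difference between OE and ZH11 after cold (vertical) and before cold (horizontal), log2(signal + 16) with standard errors, for the genes with the largest named changes and those whose effects differed by the test. Red circles are the 25 genes whose difference between effects was called and open squares 20 for which it was not; the diagonal marks equal effects. DREB1A, DREB1G, JAZ13 and TIFY11a sit high, at -0.05, 0.24, 0.28 and 0.02 on the horizontal axis, and DREB1B at -0.52. LOC9268613, Cht2, MS and LOC4335518 lie near the diagonal. LOC4331398, at 6.10 and 5.98, is beyond the axes.

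The lines differed from each other after cold at 17 genes (0.107% of those tested), 9 higher in OE-24 and 8 higher in OE-29. Before cold the count was 33 (0.208%). The 17 are named here after their values were seen, and 0 of them are among the 2839 genes above. A gap between the lines widens the spread in the test of OE against ZH11, so such genes could hardly be called there. Over probe sets, 4 of the 2790 called higher and 0 of the 1697 called lower differed between the lines. LOC4344283 had a signal of 11183.4 in OE-24 and 130.4 in OE-29, against 16.7 and 21.5 in ZH11. It was at 9881.1 in OE-24 before cold, with 76.4 in OE-29 and 65.5 and 74.6 in ZH11. The gene was thus near the top of the scale in line OE-24 at both times, and after cold OE-29 was also above ZH11, by 2.06 on the log2 scale. OE-24 minus OE-29 after cold was 6.26 ± 0.14 (adjusted p = 3.02e-06). LOC4339592 had 11451.6 in OE-24 and 1084.9 in OE-29, against 969.6 and 899.8 in ZH11 (OE-24 minus OE-29 3.38 ± 0.09, adjusted p = 3.02e-06). LOC9270995 had 1453.5 in OE-24 and 328.9 in OE-29, against 265.4 and 265.7 in ZH11 (2.09 ± 0.11, adjusted p = 0.000234). In LOC4339592 and LOC9270995 the values of OE-29 lay close to ZH11 and OE-24 stood alone. LOC4351887 was the reverse, at 18.1 in OE-24 and 382.3 in OE-29, against 17 and 24.3 in ZH11 (-3.55 ± 0.20, adjusted p = 0.000378).

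Of the 17 genes, 9 were called against ZH11 in OE-24 only, 3 in OE-29 only and 5 in each line. In 3 of these 5 the lines went in opposite directions from ZH11. BURP16, of the BURP domain family, had 9.3 in OE-24 and 349.5 in OE-29, against 84.1 and 37.9 in ZH11. LOC4348069 had 272.3 in OE-24 and 1184.6 in OE-29, against 558.7 and 509.9 in ZH11. The sugar transporter gene SWEET15 had 52.7 in OE-24 and 16.2 in OE-29, against 36.8 and 31.8 in ZH11, all low signals. In each of them ZH11 lay between the lines. LOC4345609 and LOC4345610 are direct neighbours on chromosome 8 in the same gene table. LOC4345609 had 7.4 in OE-24 and 106.2 in OE-29, against 85.3 and 71 in ZH11. LOC4345610 had 207.4 in OE-24 and 10.2 in OE-29, against 11.4 and 9.4 in ZH11. So OE-24 was low at the first and high at the second, and OE-29 resembled ZH11 at both. The same held before cold, when OE-24 minus OE-29 was -2.31 for LOC4345609 (adjusted p = 0.0207) and 2.12 for LOC4345610 (adjusted p = 0.00246). The next gene along, LOC4345611, had 1563 in OE-24 and 1317.5 in OE-29, against 1020.3 and 1054.3 in ZH11. All line differences carry 1 array a line. The count of 39 probe sets behind them was 18 without either ZH11 cold array, and only LOC4344283, LOC4339592, LOC4345610, LOC9270995 and LOC4351887 passed in every alternative run.

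**Figure D5:**
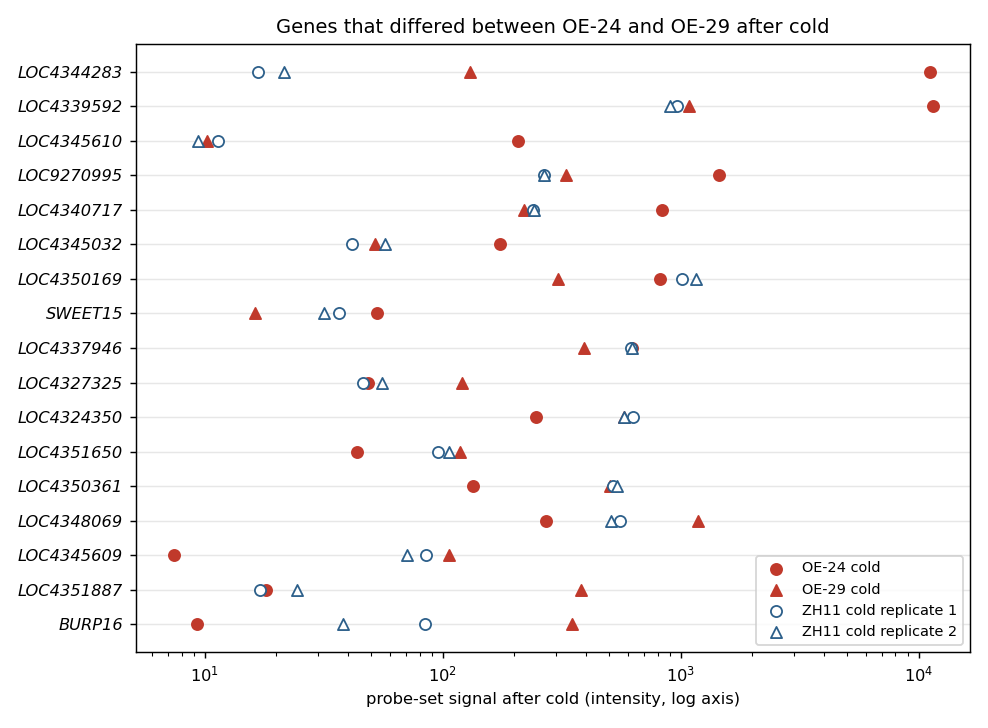
Deposited probe-set signal (log axis) after cold of the 17 genes that differed between the lines; filled red symbols are OE-24 (circles) and OE-29 (triangles), open blue symbols the 2 ZH11 replicates. LOC4344283 in OE-24 is at 11183.4 while OE-29 is at 130.4 and ZH11 at 16.7 and 21.5; in BURP16, LOC4348069 and SWEET15 the ZH11 arrays lie between the lines.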

How the data were processed

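Gene expression was measured on 8 one-colour arrays, and the 4 cold arrays are the subject here. The values are probe-set intensity signals on a linear scale that the authors deposited; how they were summarised and normalized is not given in the sources used here. The platform annotation paired 22436 of 57194 probe sets with a single gene and 95 with more than one, and left 34663 unpaired. This gave 17905 genes, 2446 of them with a name through the reference gene table. The brightest tested probe set stood for a gene.

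Signals were taken to log2 after adding 16, without further scaling, and the 34316 probe sets with a mean above the 40th percentile were tested. A model of 4 group means over all 8 arrays was fitted with limma 3.58.1 in R 4.3.3 (lmFit, eBayes with a trend), and a model of 6 groups gave the line comparisons. All tests were two-sided, with Benjamini-Hochberg adjustment over all tested probe sets and a call at an adjusted p under 0.05; ± is the standard error. The number of arrays limits the precision. The members and the 40 gene lists were chosen with earlier results of these data known. Named genes were, among those called without overlap, the 15 largest differences each way among bright genes with a symbol, the 4 largest among those with a locus number, and up to 3 each way in each list. For differences between the lines the rule asked for bright genes with a symbol and found 0. The ZH11 replicates are independent by the series' design text, and the OE numbers are lines. Alternatives changed the pseudocount, filter, scaling, trend, arrays and block.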

Additional observations from a re-analysis of the deposited data

Results flagged for a closer look

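The effect of genotype differed between the times, after cold and before cold, by the limma test of the difference itself. This held for 390 probe sets (251 positive and 139 negative). Among the named genes 25 passed this test, and each value below is OE minus ZH11 after cold, less the same before cold, on the log2 scale. Upward these were DREB1A at 2.69, DREB1B at 2.59, DREB1G at 2.27, the jasmonate repressor genes JAZ13 at 2.06 and TIFY11a at 2.03, MYB2 at 1.94 and MYB4 at 1.05. DXPS was at 1.77, C3H54 at 1.65, CML15 at 1.53, SAP11 at 1.34, HSF07 at 1.26, PDIL2-3 at 1.09, GRXC15 at 0.95 and HSP18.8 at 0.61. Of the genes with a locus number, LOC4325751 was at 2.31 and LOC4351514 at 2.16. Downward, the germin-like genes GER6 and GLP2 were at -1.61 and -0.999, the aquaporin genes NIP1-1 and TIP2-2 at -0.93 and -0.89, SUS1 at -0.82, CDC25.1 at -0.79, PP2C48 at -0.72 and INO1 at -0.67. The call held in all alternatives for 9 of the 25, namely DREB1A, DREB1B, DXPS, MYB2, CML15, SAP11, GER6, LOC4325751 and LOC4351514, and was lost without at least 1 cold array for the other 16. The alternatives included each array left out in turn. Of these 16 calls, 10 were lost only when an array was left out, and the others, SUS1 among them, also under a change of processing.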

How the results depend on the processing

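Counts of called probe sets depended most on which array was left out, and the cause was not tested. The count of OE against ZH11 after cold fell without a cold or ZH11 normal array and rose without an OE normal array. With 1 array left out, the 4487 after cold became 1131 to 6352, the 390 for the difference between the times 69 to 473, the 4546 of OE-24 603 to 4316, the 3962 of OE-29 493 to 3938 and the 39 between the lines 18 to 34. For the last, a pseudocount of 1 gave 23 and the 60th percentile 13. Without a trend the 139 negative calls of the difference between the times became 90. The other totals stayed within 1.5 times the reported counts. Scaling moved the split of the 4487 calls: 2790 higher and 1697 lower became 2374 and 2082 with quantile normalization and 3172 and 1488 with median centring. A replicate block gave 3845 calls after cold and 318 for the difference between the times, and a block within each genotype 3843 and 382. Replicate numbers are lines in OE and only numbers in ZH11. Replicate 1 minus replicate 2 correlated over probe sets at -0.04 between OE cold and ZH11 cold, -0.12 between OE normal and ZH11 normal, 0.16 between OE cold and ZH11 normal and -0.13 between OE normal and ZH11 cold. Within a genotype, the correlation between cold and normal was 0.12 in OE, where the numbers stand for the same lines, and -0.02 in ZH11. No paired analysis was possible for the line comparisons because a line is a replicate number in OE. Of 155 named genes 62 kept their call in every alternative, 93 lost it without at least 1 cold array, and 0 reversed. For 64 of the 93 the call was lost only when an array was left out, and for the others also under a change of processing.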

Other observations

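Further lists are given by their counts after cold, where all genes had 11.4% called higher and 6.53% lower. MAP kinases had 3 of 15 genes higher (20%, or 1 gene without any 1 cold array) and 0 lower in limma, with 0 downward at an unadjusted p under 0.05, and MPK13 gave 345.3 and 334 in OE, against 233.8 and 231 in ZH11 (0.52). Cytokinin genes had 3 of 27 higher (1 to 2 without 1 cold array) and 0 lower, with 2 downward at an unadjusted p under 0.05. The response regulator gene RR9 gave 375.9 and 333.3 in OE, against 172.7 and 182.6 in ZH11 (0.93), and lost its call without ZH11 replicate 1 (adjusted p 0.000647 to 0.0609). Diterpenoid and isoprenoid synthesis had 3 of 23 higher (2 to 4) and 1 lower (0), with the cytochrome P450 gene CYP71Z6 at 231.5 and 195.4 in OE, against 82.6 and 111.9 in ZH11 (1.03).

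The small factor families WRKY, NAC and MYB had calls in both directions, with the range without 1 cold array in parentheses. WRKY had 2 of 6 higher (1 to 2) and 1 lower (1), WRKY24 at 0.72 and WRKY76 at -1.24. NAC had 2 of 6 higher (0 to 2) and 1 lower (0 to 1), and MYB had 3 of 8 higher (1) and 2 lower (1 to 2), MYBAS1 at -0.82 beside MYB2 at 1.72. Of 18 bZIP genes 1 was called lower (0 to 1) and 0 higher, with 2 upward at an unadjusted p under 0.05. Metallothioneins and metal transport had 2 of 46 higher (0 to 2) and 6 lower (1 to 5), and sugar transporters 1 of 17 higher (0) and 2 lower (0 to 2). Vesicle and Golgi transport had 1 of 19 higher (0 to 1) and 2 lower (0), and trehalose, proline and inositol synthesis 2 of 10 higher (0 to 2) and 2 lower (1 to 2). MPK13, CYP71Z6, WRKY24, WRKY76, MYBAS1 and MYB2 kept their calls in every alternative.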
